A study of Homo sapiens with 6 samples.

Results

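The genes examined here were 9 members of the Notch axis and of the mesenchymal state of neuroblastoma: the receptors *NOTCH1*, *NOTCH2* and *NOTCH3*, the ligand *JAG1*, the nuclear factors *RBPJ* and *MAML2*, the target genes *HES1* and *HEY1*, and the homeobox gene *PRRX1*. They were chosen by name for their known roles, but with earlier results of these data known. They make up 9 of the 58735 genes listed for each library. The libraries came from RNA sequencing (RNA-seq) of SK-N-AS, an established human neuroblastoma cell line. Cells received either siPrp19, a small interfering RNA (siRNA) that targets Prp19, or NC, the negative control siRNA, and no other agent is named for either group. The labels put RNA collection at 72 h from transfection, and a shorter time is given in the study's methods. Prp19, encoded by *PRPF19*, is a ubiquitin ligase and splicing factor needed for activation of the spliceosome. Each group had 3 libraries, which the study describes as biological replicates.

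Notch receptors sit in the cell membrane and are cut, after binding a ligand such as JAG1 on a neighbouring cell, by an ADAM protease and then by γ-secretase. The freed intracellular domain enters the nucleus, binds the DNA-binding protein RBPJ and, together with a Mastermind-like protein such as MAML2, turns on target genes of the HES and HEY families. Neuroblastoma cells can occur in an adrenergic state, marked by transcription factors of the sympathetic lineage, or in a mesenchymal state that expresses *PRRX1* and in which Notch signalling is known to be active.

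The name of the value column and the label contradicted each other in 2 of the 6 libraries. The columns are called NCa, NCb, NCc, siPrp19a, siPrp19b and siPrp19c. The library with the column NCb was labelled siPrp19 replicate 1, and the library with the column siPrp19b was labelled NC replicate 3. The others were labelled NC replicate 1 (NCa), NC replicate 2 (NCc), siPrp19 replicate 2 (siPrp19a) and siPrp19 replicate 3 (siPrp19c). Values are therefore named by column, and 3 comparisons are given: by column name (3 libraries against 3), by label (3 against 3), and over the 4 libraries in which both sources gave 1 group (2 against 2). Directions given below rest on the column names unless stated otherwise.

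Libraries held between 14887132 and 19977811 reads assigned to genes, and mitochondrial genes took between 5.15% and 5.49% of these reads except in siPrp19a, where they took 8.29%. The targeted gene was examined first. *PRPF19* was at 83.0, 83.1 and 93.0 FPKM (fragments per kilobase of exon and per unit of library depth) in NCa, NCb and NCc, and at 19.6, 19.1 and 18.5 FPKM in siPrp19a, siPrp19b and siPrp19c. Its level followed the column names and went against the label both in siPrp19 replicate 1 (NCb) and in NC replicate 3 (siPrp19b). By column name it was 77.9% lower in siPrp19 (log2 fold change -2.12 ± 0.07 SE, adjusted p = 0.000215 by limma). Over the 4 libraries it was 78.3% lower (-2.15 ± 0.14, adjusted p = 0.0266), and by label its log2 change of -0.74 ± 0.73 had an adjusted p of 1.00. The read counts of NCa and NCb, and those of siPrp19b and siPrp19c, differed by only 1.67 and 2.45 times the sampling variance (chi-square per degree of freedom), against 16.0 to 41.3 in the other 13 pairs of libraries. No pair reached sampling noise, so the 6 libraries were kept apart, but whether each of these close pairs came from 1 culture is not stated in the labels. If it did, each group by column name would hold 2 independent samples in place of 3, and the SDs, SEs and p-values by column name would be too small. An alternative chosen after seeing the data therefore counted the mean of each close pair as 1 sample (2 against 2). It ended the call of every member and every gene of the lists below that was called by column name. Its values are given below for *RBPJ*, *FURIN*, *YAP1*, *RUNX2* and *DDC*. The 4 libraries with matching label and column name hold 1 library of each close pair.

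Markers of the 2 neuroblastoma states were both present. Among mesenchymal markers, *VIM* (vimentin) ranged from 99.4 to 162 FPKM and *TWIST1* from 35.5 to 64.5 FPKM. Among adrenergic markers, *HAND2* ranged from 117 to 170 FPKM and *GATA3* from 22.8 to 30.7 FPKM, whereas *TH* (tyrosine hydroxylase) stayed at or under 0.662 FPKM. Since RNA was taken from bulk cultures, fewer cells of a state and less RNA per cell cannot be told apart. Among haematopoietic markers, *PTPRC* was at 16.9 to 30.7 FPKM, *CD3E* was listed at 0 and *CD14* did not exceed 0.586 FPKM. The sum over the haematopoietic list was 25.5 to 31.0 FPKM in the NC columns and 17.2 to 20.9 FPKM in the siPrp19 columns. The 3 epithelial and 3 endothelial markers were each under 1 FPKM in every library, with *CDH5* at 0. By column name *PTPRC* had a log2 fold change of -0.63 (adjusted p = 0.0202 by limma), and its part in the results below was not tested.

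The members differed widely in level. Since FPKM is scaled by exon length, levels can be set side by side between genes, but only roughly. The length is that of all merged exons of a gene, which can exceed that of the transcript expressed. *HES1* was the highest at a mean of 14.6 FPKM over the 6 libraries, above 75.1% of the tested genes, followed by *PRRX1* (12.7 FPKM), *NOTCH3* (12.4 FPKM), *RBPJ* (9.18 FPKM), *JAG1* (6.01 FPKM), *HEY1* (5.59 FPKM), *MAML2* (3.13 FPKM), *NOTCH2* (0.115 FPKM) and *NOTCH1* (0.109 FPKM). Neighbours in this order had overlapping ranges over the libraries, except that every value of *HEY1* exceeded every value of *MAML2*, and every value of *MAML2* exceeded every value of *NOTCH2*. Only genes with a mean of at least 1 FPKM were tested across the transcriptome, and 7 of the 9 members passed this filter.

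By column name, 1 of the 7 tested members passed the adjusted threshold of 0.05, and this was *RBPJ*, which was lower in siPrp19 by more than 1.5-fold. Among all 13718 tested genes, 7.94% passed, 2.57% as higher and 5.37% as lower, and 2.84% passed with a change above 1.5-fold. Of the genes called, 32.4% were higher (353 higher, 736 lower), and 46.1% were after quantile normalization (501 higher, 586 lower). With the close pairs averaged, 2 genes passed by limma, neither of them a member, and 1699 had an unadjusted p under 0.05. By label, none of the 7 members passed, with 0.0% of all genes called by limma, and no member but 191 genes had an unadjusted p under 0.05. In the 4 libraries with matching label and column name, none of the members passed the limma threshold, against 0.0146% of all genes (2 genes), while 1 member and 1685 genes had an unadjusted p under 0.05. With the alternative voom model on the read counts of these 4 libraries, 2.3% of genes passed (316 genes), *RBPJ* among them.

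*NOTCH3* was by far the most abundant receptor mRNA per length in these cells. It was expressed at 12.4, 12.4 and 9.76 FPKM in NCa, NCb and NCc, and at 12.7, 14.5 and 12.4 FPKM in siPrp19a, siPrp19b and siPrp19c. NCc was the lowest library and siPrp19b the highest, and the groups did not overlap by column name, although NCb and siPrp19c differed by less than the spread within either group. The means by column name were 11.5 ± 1.5 FPKM (SD, n = 3) in NC and 13.2 ± 1.15 FPKM (SD, n = 3) in siPrp19. The change on the log2 scale was 0.19 ± 0.11 (SE), with a 95% interval of -0.07 to 0.45 and an adjusted p of 0.345 by limma. It was 0.18 over the 4 libraries (adjusted p = 0.659) and 0.05 by label (adjusted p = 1.00), so *NOTCH3* passed the threshold in no comparison. *NOTCH3* (ENSG00000074181) is located at 15159038 to 15200981 of chromosome 19 (minus strand, GRCh38).

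*NOTCH1*, the receptor gene on chromosome 9 (136494433 to 136545786, minus strand), was barely detected. Its values were 0.0974, 0.124 and 0.106 FPKM in NCa, NCb and NCc and 0.122, 0.0817 and 0.124 FPKM in siPrp19a, siPrp19b and siPrp19c, from 14 to 27 reads per library. By column name the groups overlapped fully, and p was 0.9 by the exact permutation test (two-sided). By label the groups did not overlap, with p = 0.1 (0.3 after adjustment over 3 genes) in the same exact test, and 0.1 is the smallest p that 3 libraries against 3 allow. The mean of *NOTCH3* was 113 times that of *NOTCH1*, with ratios of 91.7 to 178 within single libraries.

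*NOTCH2* lies on the minus strand of chromosome 1 (119911553 to 120069626) and was at the same low level. It was at 0.0902, 0.101 and 0.0692 FPKM in NCa, NCb and NCc, from 24, 25 and 20 reads. In siPrp19a, siPrp19b and siPrp19c it was at 0.173, 0.148 and 0.108 FPKM, from 46, 41 and 38 reads. Each siPrp19 column was above each NC column, the nearest values being those of siPrp19c and NCb. The exact permutation test gave p = 0.1 by column name (0.15 after adjustment over 3 genes) and p = 0.5 by label. As 0.1 is the smallest p of this design, the test could not pass at the threshold of 0.05, whatever the difference. The mean of *NOTCH3* exceeded that of *NOTCH2* 108-fold. It exceeded that of *NOTCH4*, which ranged from 0.0842 to 0.182 FPKM, 87.2-fold. *NOTCH2NLA*, a partial copy of *NOTCH2*, had at most 3 reads in any library.

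**Figure D1:**
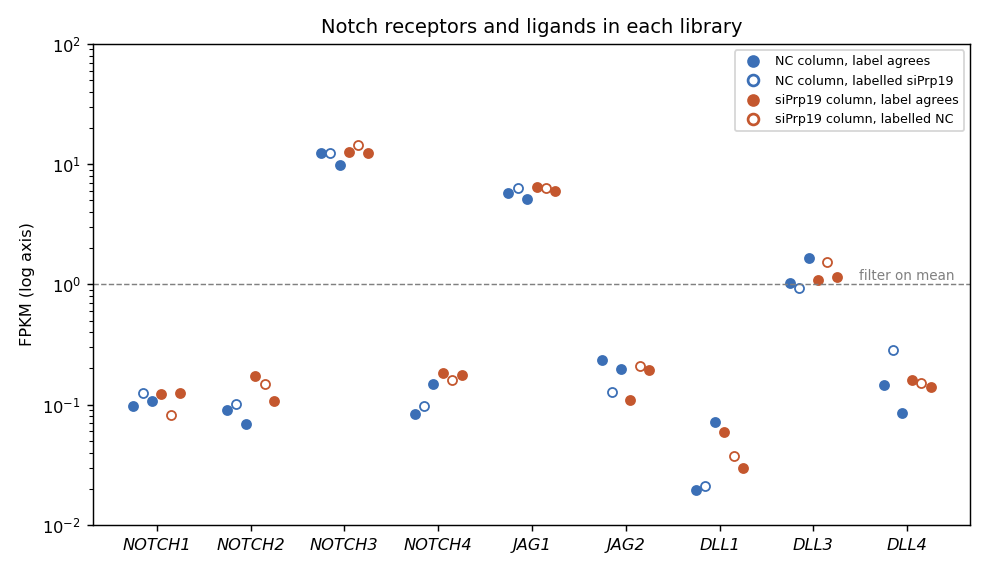
Expression of the 4 Notch receptors and 5 ligands in each of the 6 libraries, in FPKM on a log axis. Colour gives the group by column name, open circles mark the 2 libraries labelled with the opposite group, and the dashed line is the filter of 1 FPKM on the mean. *NOTCH3* and *JAG1* stand above the other receptors and ligands in every library.

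*JAG1* was the leading ligand. It is located at 10637684 to 10673999 of chromosome 20 (minus strand). Its values were 5.76, 6.34 and 5.13 FPKM in NCa, NCb and NCc, and 6.48, 6.31 and 6.02 FPKM in siPrp19a, siPrp19b and siPrp19c. NCb lay within the range of the siPrp19 columns, so the groups overlapped. The mean was 5.74 ± 0.602 FPKM (SD, n = 3) in NC and 6.27 ± 0.234 FPKM (SD, n = 3) in siPrp19 by column name, with a log2 fold change of 0.11 ± 0.08 (SE), a 95% interval of -0.09 to 0.31 and an adjusted p of 0.479 by limma. The log2 fold change was 0.17 over the 4 libraries (adjusted p = 0.624) and 0.12 by label (adjusted p = 1.00). Among the other ligands, *DLL3*, which encodes a ligand known to act mainly within the cell, was at 0.932 to 1.67 FPKM and did not pass the test (log2 fold change 0.04, adjusted p = 0.906). *JAG2*, *DLL1* and *DLL4* did not exceed 0.285 FPKM, and the mean of *JAG1* was 33.5 times that of *JAG2*.

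*RBPJ*, the DNA-binding factor on which signals from all Notch receptors converge, was the member with the largest difference. The gene (ENSG00000168214) spans 26163455 to 26435131 on the plus strand of chromosome 4 and has 24 merged exons of 9253 bases in total. It was expressed at 14.1, 13.9 and 11.3 FPKM in NCa, NCb and NCc, from 2061, 1893 and 1792 reads. In siPrp19a, siPrp19b and siPrp19c it was at 5.67, 5.02 and 5.21 FPKM, from 829, 767 and 1013 reads. The siPrp19 columns lay close together, and all were below the lowest NC column. The library labelled siPrp19 replicate 1 was among the high ones and the library labelled NC replicate 3 among the low ones, as for *PRPF19*.

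By column name, the mean of *RBPJ* was 13.1 ± 1.57 FPKM (SD, n = 3) in NC and 5.30 ± 0.334 FPKM (SD, n = 3) in siPrp19, which is 59.4% lower. The log2 fold change was -1.15 ± 0.10 (SE), with a 95% interval of -1.39 to -0.92 and an adjusted p of 0.00244 by limma, and *RBPJ* ranked 41 of 13718 genes by p. Over the 4 libraries with matching label and column name it was 57.0% lower, from 12.7 ± 1.99 FPKM (SD, n = 2) to 5.44 ± 0.324 FPKM (SD, n = 2). The log2 fold change there was -1.08 ± 0.15 with a 95% interval of -1.43 to -0.72, and the adjusted p was 0.0835 by limma and 0.00264 by voom. By label the means were 10.1 ± 4.63 FPKM (SD, n = 3) and 8.25 ± 4.87 FPKM (SD, n = 3), and the log2 fold change of -0.28 ± 0.42 was smaller than the spread within the groups (adjusted p = 1.00). By column name *RBPJ* passed the threshold under the 7 planned settings and without each library in turn. The fits without NCc or siPrp19a left a close pair alone in 1 group. *RBPJ* did not pass with the close pairs averaged, with -1.08 ± 0.14 (SE) on the log2 scale and an adjusted p of 0.104 by limma. Without siPrp19a, the library with the high mitochondrial share, the log2 fold change was -1.20. The related gene *RBPJL* had at most 3 reads per library, the pseudogenes *RBPJP2*, *RBPJP5*, *RBPJP6* and *RBPJP7* had 0 reads, and no annotated gene overlaps *RBPJ*.

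**Figure D2:**
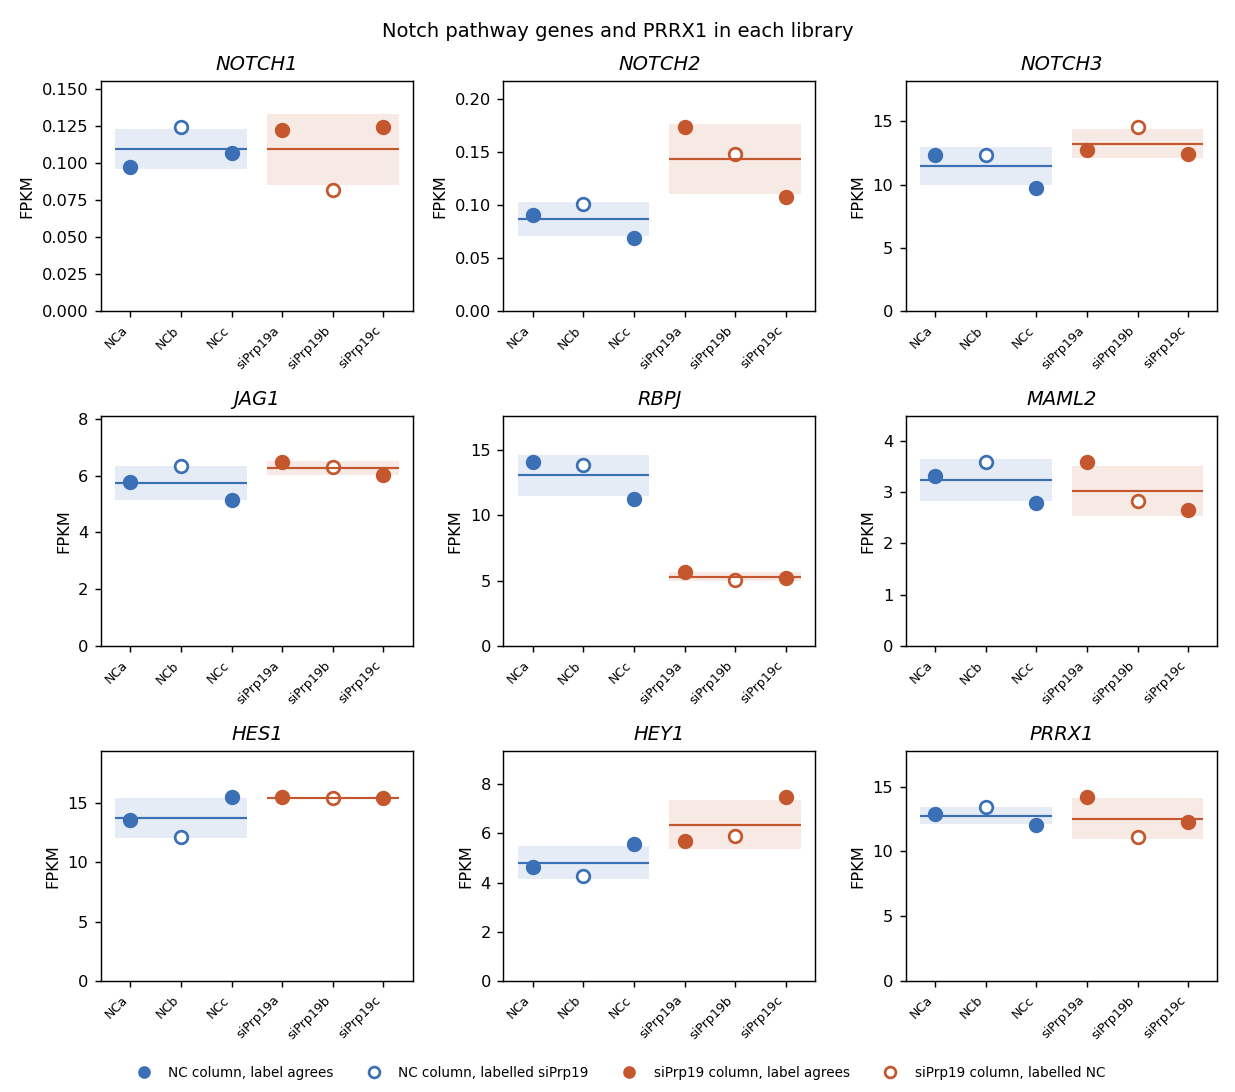
Expression of the 9 members in each library, in FPKM on linear axes that start at 0. Lines and bands give the mean and SD of the 3 libraries by column name, and open circles mark the 2 libraries labelled with the opposite group. For *RBPJ* the NC columns lie between 11.3 and 14.1 FPKM and the siPrp19 columns between 5.02 and 5.67 FPKM, whereas the bands of the other members overlap except for *NOTCH2*.

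RBPJ recognises a DNA element with the core TGGGAA, of which GTGGGAA is the longer form, so the promoter of its classical target *HES1* is shown with every match of TGGGAA or of its reverse complement TTCCCA in capitals. The window is the 250 bases before the RefSeq start site of *HES1*, chr3:194135898-194136147 on the plus strand (GRCh38.p14). The other window shown is the only one of 5 RefSeq windows of *RBPJ* itself that held a match, chr4:26319496-26319745 on the plus strand.
HES1: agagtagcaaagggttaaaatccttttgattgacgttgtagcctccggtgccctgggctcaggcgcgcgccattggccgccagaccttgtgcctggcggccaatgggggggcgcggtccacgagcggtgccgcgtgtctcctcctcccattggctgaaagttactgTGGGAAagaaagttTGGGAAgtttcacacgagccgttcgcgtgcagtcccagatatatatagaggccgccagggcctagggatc
RBPJ: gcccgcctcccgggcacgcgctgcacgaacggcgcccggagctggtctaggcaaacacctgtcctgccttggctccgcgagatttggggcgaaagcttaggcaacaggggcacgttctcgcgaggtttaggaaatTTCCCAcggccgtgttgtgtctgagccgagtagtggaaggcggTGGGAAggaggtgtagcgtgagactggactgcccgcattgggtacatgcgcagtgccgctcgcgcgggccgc

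The *HES1* window held 2 matches, which begin 84 and 70 bases before the start site, and 1 of them was also the longer GTGGGAA. The *RBPJ* window held 2 matches, 115 and 72 bases before the start site, and both were GTGGGAA, read on either strand. RefSeq windows were at hand for 8 of the 9 members, 12 windows in all, and the other 10 windows held no TGGGAA. Of 35116 windows of this length, 20.8% held at least 1 TGGGAA and 2.90% held 2 or more, while 5.43% held at least 1 GTGGGAA and 0.174% held 2 or more. A match describes the letters only and is no evidence of binding in these cells.

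*HES1*, a transcriptional repressor and the best known direct target of the RBPJ complex, lies on the plus strand of chromosome 3 (194136145 to 194138732). It was at 13.6, 12.1 and 15.5 FPKM in NCa, NCb and NCc and at 15.5, 15.4 and 15.5 FPKM in siPrp19a, siPrp19b and siPrp19c. The siPrp19 columns were almost equal, NCc reached their level, and NCa and NCb were below it. By column name the mean was 13.7 ± 1.71 FPKM (SD, n = 3) in NC and 15.5 ± 0.0545 FPKM (SD, n = 3) in siPrp19, with a log2 fold change of 0.17 ± 0.09 (SE), a 95% interval of -0.05 to 0.38 and an adjusted p of 0.331 by limma. The log2 fold change was 0.09 over the 4 libraries (adjusted p = 0.805) and -0.05 by label (adjusted p = 1.00). A log2 fold change of the size measured for *RBPJ* is outside the interval by column name. That interval would be too narrow if the close pairs each shared a culture. Whether *HES1* depends on the level of *RBPJ* in these cells was not tested.

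*HEY1*, a repressor related to HES1 and a Notch target in many tissues, lies on the minus strand of chromosome 8 (79764010 to 79767863). Its values were 4.63, 4.26 and 5.56 FPKM in NCa, NCb and NCc, from 203 to 309 reads. They were 5.68, 5.91 and 7.49 FPKM in siPrp19a, siPrp19b and siPrp19c, from 290 to 508 reads. Every siPrp19 column was above every NC column, but NCc and siPrp19a lay close together. The mean by column name was 4.82 ± 0.669 FPKM (SD, n = 3) in NC and 6.36 ± 0.984 FPKM (SD, n = 3) in siPrp19, with a log2 fold change of 0.34 ± 0.12 (SE) and a 95% interval of 0.05 to 0.63. The unadjusted p was 0.0294 and the adjusted p was 0.157 by limma, so *HEY1* did not pass. The log2 fold change was 0.31 over the 4 libraries (adjusted p = 0.514) and 0.08 by label (adjusted p = 1.00).

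The groups of 3 tested members, *NOTCH3*, *RBPJ* and *HEY1*, did not overlap by column name, where 31.3% of all tested genes did not overlap. In the 4 libraries this held for 4 members, with *JAG1* added to these, against 44.0% of all genes, and by label for none of the members against 4.62%.

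*MAML2*, a Mastermind-like coactivator that binds the complex of RBPJ and the Notch intracellular domain, lies on the minus strand of chromosome 11 (95976598 to 96343180). It was at 3.32, 3.59 and 2.78 FPKM in NCa, NCb and NCc and at 3.58, 2.83 and 2.66 FPKM in siPrp19a, siPrp19b and siPrp19c. The groups overlapped, with siPrp19a as high as NCb. The log2 fold change was -0.07 ± 0.12 (SE) by column name, with a 95% interval of -0.35 to 0.21 and an adjusted p of 0.759 by limma. It was 0.02 over the 4 libraries (adjusted p = 0.974) and 0.10 by label (adjusted p = 1.00). Its paralog *MAML1* had a mean 4.65 times as high and did not pass the test by column name either (log2 fold change 0.12, adjusted p = 0.340).

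*PRRX1*, a homeobox transcription factor of mesenchymal cells, lies on the plus strand of chromosome 1 (170662728 to 170739419). Its values were 12.9, 13.4 and 12.0 FPKM in NCa, NCb and NCc and 14.2, 11.1 and 12.3 FPKM in siPrp19a, siPrp19b and siPrp19c. The highest and the lowest value both belonged to siPrp19 columns, and the NC columns lay between them. The mean by column name was 12.8 ± 0.687 FPKM (SD, n = 3) in NC and 12.5 ± 1.57 FPKM (SD, n = 3) in siPrp19. On the log2 scale the change was -0.03 ± 0.10 (SE), with a 95% interval of -0.26 to 0.20 and an adjusted p of 0.885 by limma. The estimate was 0.08 over the 4 libraries (adjusted p = 0.838), 0.13 by label (adjusted p = 1.00), and 0.03 by column name after quantile normalization, so no direction can be given.

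**Figure D3:**
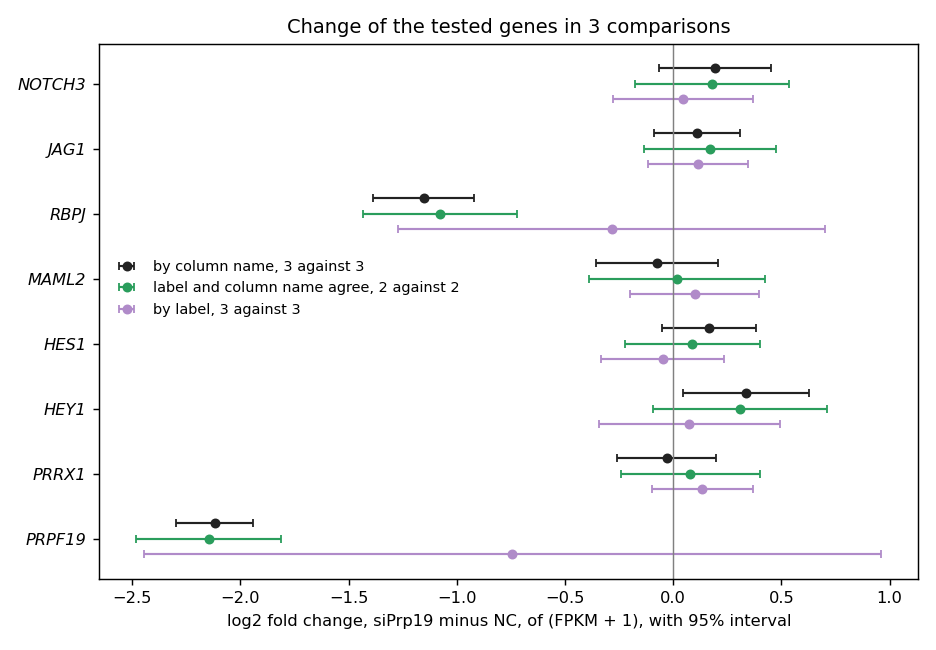
Log2 fold change of log2(FPKM + 1) in siPrp19 against NC for the 7 tested members and *PRPF19*, with 95% intervals, in 3 comparisons. Black gives the 6 libraries by column name, green the 4 libraries whose label and column name match, and purple the 6 libraries by label. The intervals of *RBPJ* and *PRPF19* lie below 0 by column name and in the 4 libraries and include 0 by label, and the other intervals include 0 except that of *HEY1* by column name.

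The genes most like each member across the 6 libraries were then listed by the root mean square difference of log2(FPKM + 1), each gene being centred on its own mean. For *RBPJ* the nearest of the tested genes was *QKI*, an RNA-binding protein that regulates splicing, at a distance of 0.05. *QKI* was at 7.06, 6.72 and 5.88 FPKM in NCa, NCb and NCc and at 2.52, 2.40 and 2.41 FPKM in siPrp19a, siPrp19b and siPrp19c. Both genes were therefore high in the NC columns, lowest among these in NCc, and nearly level across the siPrp19 columns. The nearest genes were *ERMP1* for *NOTCH3* (0.03), *MLLT3* for *JAG1* (0.01), *GUF1* for *MAML2* (0.02), *NOL12* for *HES1* (0.03), *TCAP* for *HEY1* (0.04) and *VPS37A* for *PRRX1* (0.03). NCc was the lowest NC column for *NOTCH3*, *JAG1*, *RBPJ*, *MAML2* and *PRRX1*, and the highest for *HES1* and *HEY1*. Since NCa and NCb are a close pair, NCc would be the extreme NC column for many genes. The share of all genes with either order was not counted, so no grouping of the members is drawn from it.

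The other genes of the pathway were examined as a list of 61, of which 47 passed the filter. By column name 4 of the 47 were called, 3 higher and 1 lower, which is 8.51% against 7.94% of all genes, and the median log2 fold change was 0.04 against -0.02 over all genes. Within processing of the receptor, 3 of 13 tested genes were called, all higher, while 7 of the 13 had a positive and 6 a negative log2 fold change, with a median of 0.00. *FURIN*, the convertase that cleaves the Notch precursor, was at 17.2, 18 and 17.7 FPKM in NCa, NCb and NCc and at 29, 31.4 and 30.6 FPKM in siPrp19a, siPrp19b and siPrp19c. The groups were far apart relative to their spread, with a log2 fold change of 0.75 ± 0.06 (SE) and an adjusted p of 0.00244 by limma.

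The γ-secretase subunits differed in direction by column name, and *NCSTN* and *PSEN2* were called as higher. *NCSTN* (nicastrin, which receives the substrate) was at 51.8, 52.2 and 48.9 FPKM in the NC columns and 78.2, 64.5 and 64.6 FPKM in the siPrp19 columns (log2 fold change 0.43, adjusted p = 0.0420 by limma). *PSEN2* (presenilin 2, a catalytic subunit) was at 6.50, 6.42 and 5.70 FPKM in the NC columns and 7.73, 7.86 and 8.48 FPKM in the siPrp19 columns (log2 fold change 0.33, adjusted p = 0.0457 by limma). Both were near the threshold. *PSEN2* lost its call in each of the 6 fits that left out 1 library (adjusted p = 0.0564 to 0.172 by limma), and *NCSTN* in all of these but the fit without siPrp19a (0.0406 to 0.135). In that fit the siPrp19 columns were a close pair alone. Of the subunits that were not called, *APH1A* had a log2 fold change of -0.20 (adjusted p = 0.330), *APH1B* one of 0.16 (adjusted p = 0.251) and *PSENEN* one of -0.19 (adjusted p = 0.739). The proteases *ADAM10* and *ADAM17*, which make the cut before γ-secretase, had log2 fold changes of 0.02 and 0.00 (adjusted p = 0.905 and 0.993).

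Of 10 tested genes of receptor trafficking and turnover, none was called by limma. An unadjusted limma p under 0.05 was found for 4 of them by column name, against 3240 of all 13718 tested genes. *NUMB*, an endocytic inhibitor of Notch, had a log2 fold change of -0.29 (adjusted p = 0.118) and the ubiquitin ligase gene *ITCH* one of -0.34 (adjusted p = 0.111). Of 22 tested nuclear cofactors, 1 was called. *CTBP2*, a corepressor that joins RBPJ repressor complexes, was at 7.54, 7.6 and 8.01 FPKM in NCa, NCb and NCc and at 6.0, 5.41 and 5.04 FPKM in siPrp19a, siPrp19b and siPrp19c (log2 fold change -0.43, adjusted p = 0.0208 by limma). It lost its call without NCa, NCb, siPrp19b or siPrp19c, with adjusted p-values of up to 0.0966. *SNW1*, which encodes a protein found both in the spliceosome and as a coactivator with RBPJ, was at 34.1 to 42.3 FPKM and had a log2 fold change of 0.02 (adjusted p = 0.938).

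Of the other 8 target genes, only *HES6* passed the filter, with 2.49 to 4.4 FPKM and a log2 fold change of -0.13 (adjusted p = 0.650). *HES5* was listed at 0 in every library, *HES2* and *HEY2* did not exceed 0.0347 FPKM, and *NRARP*, a feedback inhibitor of Notch, did not exceed 0.215 FPKM. Thus, among the HES and HEY genes listed, *HES1* and *HEY1* had the highest mean levels. In the 4 libraries with matching label and column name, none of the 47 pathway genes was called by limma. An unadjusted limma p under 0.05 was found there for 6 of the 47, against 1685 of all 13718 tested genes. Voom called 1 of them, against 316 of the 13718 (2.3%). By label none was called, with 2 at an unadjusted limma p under 0.05, against 191 of the 13718.

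The list of other mesenchymal state genes held 42 genes, of which 37 were tested. By column name 6 were called, 1 higher and 5 lower, which is 16.2% against 7.94% of all genes, and the median log2 fold change was -0.12. This list and the adrenergic list below were chosen with earlier results of these data known. Their shares beside those of all genes are therefore descriptive and are no test of either list. *YAP1*, a coactivator of the Hippo pathway that the study also followed, was at 20.7, 20.9 and 17.5 FPKM in NCa, NCb and NCc and at 7.65, 7.67 and 8.42 FPKM in siPrp19a, siPrp19b and siPrp19c (log2 fold change -1.21, adjusted p = 0.00182 by limma). *RUNX2*, a transcription factor of the osteoblast lineage, was at 7.04, 6.75 and 5.83 FPKM in the NC columns and 3.92, 3.22 and 3.49 FPKM in the siPrp19 columns (-0.73, adjusted p = 0.00827). *WWTR1*, the paralog of *YAP1* that encodes TAZ, was at 9.03, 9.40 and 8.76 FPKM in the NC columns and 6.66, 5.32 and 5.74 FPKM in the siPrp19 columns (-0.55, adjusted p = 0.0146). The call of *WWTR1* was lost without NCa, NCb, siPrp19b or siPrp19c, with adjusted p-values of up to 0.0723.

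Smaller falls were seen for *AEBP1* (log2 fold change -0.30, adjusted p = 0.0355 by limma) and for *CBFB*, the partner subunit of RUNX factors (-0.37, adjusted p = 0.0435). *SMAD3*, a transducer of TGF-β signals, rose, with 28.4, 28.4 and 24.3 FPKM in the NC columns and 36.1, 34.6 and 34.7 FPKM in the siPrp19 columns (0.37, adjusted p = 0.0390). These were close to the threshold as well, since *AEBP1* and *SMAD3* kept the call only without NCc, and *CBFB* only without siPrp19a, among the fits that left out 1 library. In both of these fits a close pair stood alone in 1 group. Structural genes of the state had log2 fold changes of -0.37 for *VIM* (adjusted p = 0.129), -0.09 for *FN1* (adjusted p = 0.781) and -0.05 for *COL1A1* (adjusted p = 0.805). By column name a negative log2 fold change was found for 28 of the 37 tested genes, which is 75.7% against 54.0% of all tested genes, and a positive one for 9. Over the 4 libraries the negative share was 67.6% against 53.8% of all genes, and by label 54.1% against 53.7%. The adrenergic list below had a negative share of 82.4% by column name, so this direction was not particular to the mesenchymal list. For *PRRX1* itself the log2 fold change by column name was -0.03.

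Of 23 adrenergic state genes, 17 were tested and 4 were called by column name, all lower, with a median log2 fold change of -0.27. This is 23.5% against 7.94% of all genes, again for a list chosen with earlier results known. A negative log2 fold change was found for 14 of the 17, which is 82.4% against 54.0% of all tested genes, and a positive one for 3. *DDC*, an enzyme of catecholamine synthesis, was at 40.4, 38.2 and 45.3 FPKM in NCa, NCb and NCc and at 23.7, 24.2 and 25.1 FPKM in siPrp19a, siPrp19b and siPrp19c (log2 fold change -0.74, adjusted p = 0.00553 by limma). *SOX11*, a transcription factor of the neural lineage, was at 7.74, 7.82 and 8.63 FPKM in the NC columns and 4.88, 5.56 and 4.99 FPKM in the siPrp19 columns (-0.56, adjusted p = 0.00953). The call of *SOX11* was lost without siPrp19c (adjusted p = 0.0533). *GATA3* and *HAND2* had log2 fold changes of -0.29 and -0.32 (adjusted p = 0.0550 and 0.101).

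Neither state list held a gene called by limma in the 4 libraries or by label. In the 4 libraries, 8 of 37 mesenchymal and 5 of 17 adrenergic genes had an unadjusted limma p under 0.05, against 1685 of all 13718 tested genes. Voom called 2 and 3 of them there, against 316 of the 13718 (2.3%). By label, 0 mesenchymal genes and 1 adrenergic gene had an unadjusted limma p under 0.05, against 191 of the 13718. Without single libraries, the calls by column name ranged from 2 to 10 for the mesenchymal list, from 2 to 5 for the adrenergic list and from 1 to 4 for the other Notch genes. The counts were lowest for the mesenchymal list (2 each) and for the other Notch genes (1 each) without NCa, NCb, siPrp19b or siPrp19c, highest for the mesenchymal list (10) without NCc, and lowest for the adrenergic list (2) without siPrp19c. *FURIN*, *YAP1*, *RUNX2* and *DDC* passed by column name without each library in turn and under the 7 planned settings. With the close pairs averaged, none of the genes of these 3 lists was called by limma, with adjusted p-values of 0.127 for *FURIN*, 0.104 for *YAP1*, 0.152 for *RUNX2* and 0.134 for *DDC*, and their log2 fold changes were 0.73, -1.18, -0.67 and -0.78.

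**Figure D4:**
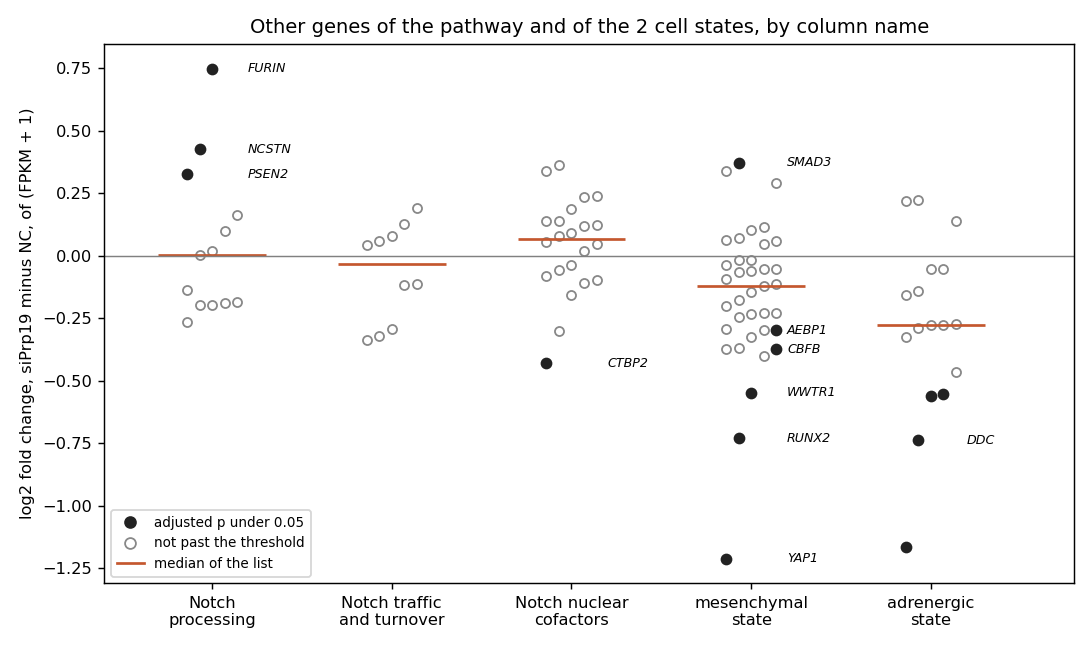
Log2 fold change of log2(FPKM + 1) in siPrp19 against NC by column name for the tested genes of 5 lists, each point being 1 gene. Filled points passed the adjusted threshold of 0.05, with names beside most of those described in the text, and bars give the median of each list. *FURIN* lies highest at 0.75, and *YAP1* lies lowest at -1.21.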

How the data were processed

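The authors aligned reads and counted them per gene, and deposited FPKM, 1 table per library. The submitters' processing notes name HISAT2 2.0.5, featureCounts 1.5.0-p3 and hg38, and the strandedness and annotation release are not given in the sources used here. RNA was extracted with TRIzol and made into libraries by the NEBNext Ultra RNA kit. The authors ran DESeq2 on counts. The deposited values are FPKM, so a log-scale fit was the main test here, with voom on the recovered reads as the count-based alternative. FPKM multiplied by the exon length in GENCODE 29 gave whole reads for 100% of values (tolerance 0.0001), and read totals were 0.951 to 1.04 times the library size that the FPKM scale implies. Of the 58735 identifiers, 58207 took symbols from a table of current names and 528 from GENCODE 29.

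The column name of 4 of the 6 files was the description of another library, and 2 of these stated the opposite group. Genes whose mean was 1 FPKM or more were tested as log2(FPKM + 1), which understates the change of low genes, with limma 3.58.1 (R 4.3.3, moderated test, mean-variance trend) and p-values adjusted over these genes after Benjamini-Hochberg. Single genes below the filter were tested with the two-sided exact permutation test. P-values measure only the spread between these libraries, which may be technical. Intervals cover 95%.

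The named genes were *PRPF19*, the members, their nearest genes, up to 5 higher and 5 lower called genes of each list with groups that did not overlap, and copies or overlapping genes of a member. Other genes were named as examples after their values were seen, and some genes of the lists are not reported here. The members and lists were chosen with earlier results of these data known. Alternatives were a pseudocount of 0.1, no filter, quantile normalization, rescaling to the same sum, no trend, voom on recovered reads, the replicate number or column letter as a block, and the omission of each library. After seeing the data, a fit with the means of NCa with NCb and of siPrp19b with siPrp19c was added. The fits were tested on simulated libraries with known changes. These were drawn independently, without close pairs, so they do not give the error rates of the fits to the real libraries. Promoter windows are from RefSeq (GRCh38.p14) and other coordinates from GENCODE 29. Python 3.11.15, numpy 2.4.6, pandas 2.3.3, scipy 1.17.1 and matplotlib 3.10.9 were used for tables and plots.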

Additional observations from a re-analysis of the deposited data

How the results depend on the processing

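Of 690 values recomputed under the alternatives, 560 kept both direction and call (for counts, stayed within 1.5 times), 15 reversed, 78 lost a call, 1 gained a call and 36 counts moved. By label no gene was called in any fit, and most members were called in no comparison. Such values had no call to lose, so 560 of 690 does not measure how stable the calls were. With the close pairs of libraries averaged, an alternative added after seeing the data, 2 genes were called by column name and 1699 had an unadjusted p under 0.05. The members, other Notch, mesenchymal and adrenergic state genes had 0 calls each by limma, with 1, 5, 7 and 5 at an unadjusted p under 0.05, and *MAML2* and *PRRX1* reversed to 0.0131 and 0.0337. By column name, 1089 genes became 512 without the filter on low values, where 34468 genes were tested, and 679 after rescaling to the same sum. Without the filter, calls among the other Notch genes went from 4 to 1 and among mesenchymal state genes from 6 to 3. With the replicate block of column letters they were 2 and 3, with 928 genes called in all, and the block changed no call among the members. Deviations from the group means correlated at -0.05 to 0.20 between libraries of the same letter and at -0.17 to 0.39 between those of the same label number. The 2 highest by label number, 0.39 and 0.32, belonged to NCa with NCb and to siPrp19b with siPrp19c. These are the close pairs, which the labels put in opposite groups, so the values cannot show a pairing of replicates. Not every library correlated best with its own letter or number, and neither was taken to pair the libraries. *PRRX1* reversed to 0.0304 after quantile normalization and to 0.0088 after rescaling to the same sum. Over the 4 libraries, 0 genes were called without the filter or with the replicate block, where *PRPF19* had adjusted p-values of 0.286 and 0.0894 by limma. Voom called 316 genes there, with 1 member (*RBPJ*, -1.21), 1 other Notch gene, 2 mesenchymal and 3 adrenergic state genes, and *MAML2* reversed to -0.0040 after quantile normalization. For none of these was the cause tested.

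Leaving out single libraries gave 253 to 1354 called genes by column name, with 264 without NCa, 335 without NCb, 270 without siPrp19b and 253 without siPrp19c. The fits without NCc (1354 genes) or siPrp19a (1033 genes) left a close pair alone in 1 group. The spread in that group would be too small if the pair shared a culture. The called members stayed at 1 in each of the 6 fits, the other Notch genes ranged from 1 to 4, the mesenchymal state genes from 2 to 10 and the adrenergic state genes from 2 to 5. Over the 4 libraries, where 1 library left in a group is assumed to vary like the others, 0 to 70 genes were called (1 without NCa, 0 without NCc, 4 without siPrp19a and 70 without siPrp19c), and *PRPF19* lost its call without NCa or NCc (adjusted p = 0.113 and 0.242 by limma). Log2 fold changes that reversed in such fits were those of *PRRX1* by column name (-0.118 to 0.0457, with 0.0022 without NCb), of *HEY1* (-0.0975 to 0.248, with -0.0106 without NCa), *HES1* (-0.108 to 0.0614) and *NOTCH3* (-0.0939 to 0.171) by label, and of *HES1* (-0.0027 to 0.180), *MAML2* (-0.144 to 0.180, with -0.0785 without NCc) and *PRRX1* (-0.0213 to 0.178) over the 4 libraries. *NOTCH1* and *NOTCH2* had at most 46 reads in a library, and the exact test of 3 libraries against 3 could not give a p under 0.1.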
